A study of Homo sapiens with 12 samples.

Results

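The genes described here are 9 members of the machinery that makes and delivers peptides for MHC class I, namely TAP1, TAP2, TAPBP, PSMB8, PSMB9, PSMB10, NLRC5, ERAP1 and ERAP2. They were found by symbol among the 60669 gene identifiers of the count tables, and all 9 are among the 16695 genes that were tested. RNA came from PANC-1, a human pancreatic ductal adenocarcinoma cell line. Cells were transfected for 72 h with a control siRNA, called Scr1 in the library names, or with an siRNA against SIK3, a salt-inducible kinase, called AS1 in the titles. Part of the cells then received the cytokine TNF-α, at a dose of 100 ng/mL, over 30 min or over 4 h, and part received none.

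The 12 libraries form 6 sets of 2 biological replicates, but each set carries 2 descriptions that conflict for 8 of the 12 libraries. In the library names Scr1 or SIK3 gives the siRNA, 30min and 4h give the time of TNF, and CLM was read as no TNF. Both descriptions place the same 2 libraries together, so only the name of a set is in doubt. The set named Scr1 CLM is titled control siRNA without TNF, and the set named SIK3 4h is titled SIK3 siRNA with TNF for 4 h, as in the names. The set named Scr1 30min is titled SIK3 siRNA without TNF. The set named Scr1 4h is titled control siRNA with TNF for 30 min. The set named SIK3 CLM is titled SIK3 siRNA with TNF for 30 min, and the set named SIK3 30min is titled control siRNA with TNF for 4 h. Sets are called by their library names below, and no name is taken as established.

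Cells display fragments of their own proteins on MHC class I, where cytotoxic T cells read them. The proteasome cuts the proteins, the TAP1 and TAP2 transporter carries the peptides into the endoplasmic reticulum, ERAP1 and ERAP2 trim them there, and tapasin, made from TAPBP, holds empty class I molecules at the transporter for loading. Inflammatory cytokines induce the immunoproteasome, in which PSMB8, PSMB9 and PSMB10 replace the constitutive catalytic subunits PSMB5, PSMB6 and PSMB7. NLRC5 is a transcriptional coactivator of class I genes and of several of these partners.

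Of the 9 genes, 5 lie in the MHC region of chromosome 6 (GRCh38, GENCODE 29). TAP2 (ENSG00000204267.13) spans chr6:32821833-32838780, PSMB8 (ENSG00000204264.8) chr6:32840717-32844703, TAP1 (ENSG00000168394.10) chr6:32845209-32853978 and TAPBP (ENSG00000231925.11) chr6:33299694-33314387, all on the minus strand. PSMB9 (ENSG00000240065.7) spans chr6:32844136-32859585 on the plus strand. PSMB10 (ENSG00000205220.11, chr16:67934502-67937087, minus strand) and NLRC5 (ENSG00000140853.15, chr16:56989485-57083531, plus strand) are on chromosome 16. ERAP1 (ENSG00000164307.12, chr5:96760810-96808100, minus strand) and ERAP2 (ENSG00000164308.16, chr5:96875939-96919716, plus strand) are neighbours on chromosome 5. In RefSeq (GRCh38.p14), TAP1 starts at 32853704 and PSMB9 at 32854192, so the pair is transcribed in opposite directions from starts with 487 bases between them.

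Promoter sequence was read from RefSeq (GRCh38.p14) for 8 of the 9 genes, all but NLRC5, because NF-κB and interferon regulatory factors (IRF), through which inflammatory cytokines act on this pathway, bind short known motifs. The 250 bases before each annotated start were searched on both strands for GGNNNTTCC (NF-κB-like), GAAANNGAA (IRF-like) and TTCNNNGAA (STAT-like). The NF-κB-like letters were found in 5 of 12 promoters of these genes and in 17.12% of the 35116 promoters of the table. The IRF-like letters were found in 5 of 12 and in 6.88%, and the STAT-like letters in 2 of 12 and in 6.567%. For each gene 1 NF-κB-like and 1 IRF-like match is shown where there was any, so that the windows can be set beside the levels, with the match in capitals, written 5′ to 3′ on the strand of the gene with its flanks. A match is a description of the letters only.
TAP1 NF-κB-like (chr6:32853757-32853785, minus strand, 71 bases before the start): cctgttcctgGGACTTTCCgagagccccg
TAP1 IRF-like (chr6:32853813-32853841, minus strand, 127 bases before the start, motif on the other strand): cgctttcgatTTCGCTTTCccctaaatgg
TAP2 IRF-like (chr6:32838779-32838807, minus strand, 58 bases before the start): ctggggaagcGAAAGCGAAagctgcccga
TAPBP NF-κB-like (chr6:33314115-33314143, minus strand, 55 bases before the start): aaccagagcgGGGATTTCCaccgcccctc
TAPBP IRF-like (chr6:33314080-33314108, minus strand, 20 bases before the start): ccctttggagGAAAGTGAAagtgaaagga
PSMB8 NF-κB-like (chr6:32844839-32844867, minus strand, 178 bases before the start): ctcgcccgctGGTCCTTCCtggctcgcct
PSMB10 IRF-like (chr16:67936853-67936881, minus strand, 21 bases before the start): gggtaaaggcGAAAGCGAAagcaggaagt
ERAP1 NF-κB-like (chr5:96808000-96808028, minus strand, 73 bases before the start): gccttagccaGGGGCTTCCccgcctgccg
ERAP2 IRF-like (chr5:96876460-96876488, plus strand, 30 bases before the start): tcttagaacaGAAAGTGAAagcaaaagta
The TAP1 IRF-like match overlaps a second one 133 bases before the start, TAPBP holds a further match of each kind, and PSMB8 holds a second NF-κB-like match before another of its starts. The window of PSMB9 held none of the 3 motifs. The TAP1 matches shown lie between the starts of TAP1 and PSMB9, beyond the 250 bases searched for PSMB9.

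Reads counted on genes ran from 13535825 to 22699756 per library, so that 3 counts, taken as the limit for a gene with none, correspond to 0.132 to 0.222 CPM (counts scaled to the library total). Multimapping reads were 4.94 to 45.3% of all reads and were higher in replicate 2 of every set. Reads on no annotated gene were 16.5 and 17.1% in the set named SIK3 4h and 8.35 to 10.5% elsewhere, and their part in differences from that set was not tested. SIK3, the targeted gene, stood at 34.3 and 60.4 CPM in Scr1 CLM, 42.5 and 68.7 in Scr1 30min, and 34.4 and 65.2 in Scr1 4h. It stood at 16.3 and 22.4 CPM in SIK3 CLM, 17.3 and 24.0 in SIK3 30min, and 18.3 and 22.8 in SIK3 4h. All 6 libraries named SIK3 were below all 6 named Scr1. By title, however, the set of SIK3 siRNA without TNF is among the high ones. The set titled control siRNA with TNF for 4 h is among the low ones. Of 6 markers of ductal epithelium, KRT8 (2648 to 3541 CPM), KRT18 (1710 to 2184) and KRT19 (717 to 1267) were abundant. KRT7 was low, at 5.91 to 11.7 CPM, with EPCAM at 31.0 to 55.0 and CDH1 at 28.1 to 86.9. Each of the 6 lymphoid markers was under 1 CPM in every library. In bulk RNA, fewer cells of a type and less RNA per cell cannot be told apart.

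Per kilobase of exon, the 9 genes spanned a wide range of levels. Exonic bases shared with other genes are included in these lengths. The mean over the 12 libraries, as CPM per exonic kilobase, was 50.6 for TAPBP, 31.7 for TAP1, 19.0 for ERAP1, 11.0 for PSMB8, 9.83 for ERAP2, 6.39 for PSMB9 and 4.04 for TAP2. PSMB10 followed at 1.97 and NLRC5 was lowest at 0.249. PSMB10 also varied most between libraries, with its highest library 12.1-fold above its lowest, against 2.23-fold to 4.22-fold for the other 8 genes. Levels in the paragraphs that follow are CPM scaled by TMM, given for replicate 1 and then replicate 2, and differences are log2 fold changes from 1 edgeR quasi-likelihood fit of all 12 libraries with Benjamini-Hochberg adjustment over the 16695 genes.

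**Figure D1:**
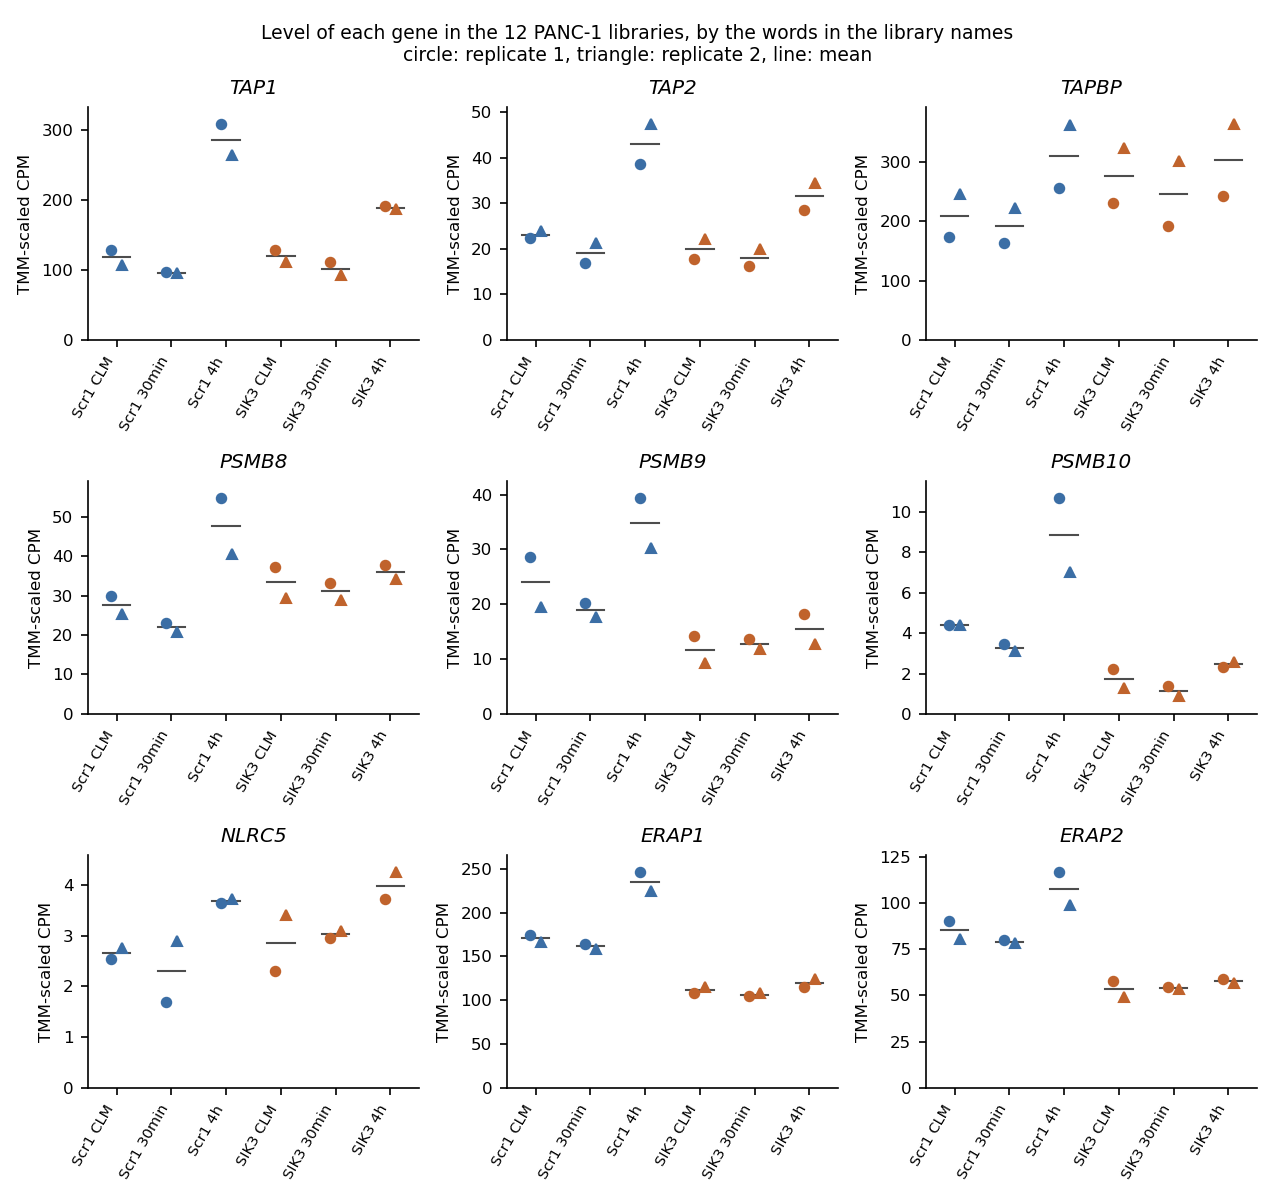
Each panel plots 1 gene, with the 6 library sets on the horizontal axis under their library names and TMM-scaled CPM on the vertical axis from 0. Circles are replicate 1, triangles replicate 2 and lines the mean, blue for sets named Scr1 and orange for sets named SIK3. The Scr1 4h libraries are the highest 2 of 12 for TAP1, TAP2, PSMB8, PSMB9, PSMB10, ERAP1 and ERAP2. The share of all genes with this order was not counted. PSMB9 and ERAP2 did not pass the test from Scr1 CLM to Scr1 4h without the replicate number as a block. Replicate 2 of TAPBP lies above replicate 1 in all 6 sets.

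TAP1, a subunit of the peptide transporter, was highest in the set named Scr1 4h, at 309 and 264 CPM. It stood at 129 and 107 CPM in Scr1 CLM and at 97.7 and 95.2 in Scr1 30min. In the sets named SIK3 it stood at 129 and 111 CPM without TNF, 111 and 93.1 at 30min, and 192 and 187 at 4h. The 2 sets named 4h thus lay apart from each other and from the other 4, whose libraries overlapped from one set to the next in the order of means. TAP1 rose 2.42-fold from Scr1 CLM to Scr1 4h (log2 1.28, 95% CI 1.01 to 1.54, adjusted p = 0.000241). From SIK3 CLM to SIK3 4h it rose 1.58-fold (log2 0.66, CI 0.40 to 0.92, adjusted p = 0.023). The second call was lost when any 1 of the 4 libraries compared was left out (adjusted p 0.0665 to 0.201). At 4h, TAP1 was 1.51-fold lower in the set named SIK3 (log2 -0.60, CI -0.86 to -0.34, adjusted p = 0.00573), while without TNF the difference was 0.02 (CI -0.24 to 0.28, adjusted p = 0.922).

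TAP2, the other subunit of the transporter, had the same order at the top. It stood at 38.7 and 47.4 CPM in Scr1 4h and at 28.6 and 34.4 in SIK3 4h. Every other library was lower, from 16.1 CPM in SIK3 30min to 23.8 in Scr1 CLM. TAP2 rose 1.86-fold from Scr1 CLM to Scr1 4h (log2 0.89, CI 0.54 to 1.24, adjusted p = 0.0121), a call lost without either Scr1 CLM library or without Scr1 4h replicate 2 (adjusted p 0.063 to 0.0959). Its 1.58-fold difference between SIK3 4h and SIK3 CLM missed the threshold (adjusted p = 0.0775), and passed with the replicate number as a block (6.1e-06). The difference between the 2 sets named 4h was -0.45 (CI -0.79 to -0.10, adjusted p = 0.0711, and 5.3e-05 with the block).

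TAPBP, which encodes tapasin, was higher in replicate 2 of every set. Replicate 1 stood at 163 to 256 CPM and replicate 2 at 221 to 363 CPM over the 6 sets. Scr1 4h (256 and 362) and SIK3 4h (242 and 363) had the highest means, and Scr1 30min (163 and 221) the lowest. No difference of TAPBP passed the test in any of the 12 comparisons of sets. With the block, TAPBP rose 1.48-fold from Scr1 CLM to Scr1 4h (log2 0.56, adjusted p = 4.7e-08, against 0.387 without it). With the block it was also higher in SIK3 CLM than in Scr1 CLM (log2 0.40, adjusted p = 1.5e-06, against 0.341). Multimapping reads were also higher in replicate 2 of every set, and their part in the spread of TAPBP was not tested.

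The 3 immunoproteasome subunits shared their highest set but not their lowest. PSMB8, the counterpart of PSMB5, stood at 54.6 and 40.6 CPM in Scr1 4h, and its lowest set was Scr1 30min, at 23.1 and 20.7. It stood at 29.9 and 25.4 CPM in Scr1 CLM and at 28.98 to 37.8 in the 6 libraries named SIK3, which did not reach the Scr1 4h libraries. PSMB8 rose 1.72-fold from Scr1 CLM to Scr1 4h (log2 0.78, CI 0.44 to 1.13, adjusted p = 0.0208), a call lost without either Scr1 CLM library or without Scr1 4h replicate 1 (adjusted p 0.0549 to 0.151). Between SIK3 CLM and SIK3 4h the difference was 0.10 (CI -0.23 to 0.44, adjusted p = 0.878), and between the 2 sets named 4h it was -0.41 (adjusted p = 0.0922, and 0.0002 with the block). At 30min it was 1.42-fold higher in the set named SIK3 (log2 0.50, adjusted p = 0.0467), a call lost when any of 8 of the 12 libraries was left out (adjusted p 0.0584 to 0.227), all but the Scr1 4h and SIK3 CLM libraries.

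PSMB9, the counterpart of PSMB6, separated the sets by the siRNA in their names. It stood at 28.7 and 19.5 CPM in Scr1 CLM, 20.2 and 17.7 in Scr1 30min, and 39.3 and 30.2 in Scr1 4h. In the sets named SIK3 it stood at 14.1 and 9.32 CPM without TNF, 13.6 and 11.9 at 30min, and 18.3 and 12.8 at 4h. Of the libraries named SIK3, only 1, SIK3 4h replicate 1, exceeded any library named Scr1. PSMB9 was 2.04-fold lower in SIK3 CLM than in Scr1 CLM (log2 -1.03, CI -1.55 to -0.51, adjusted p = 0.0119), a call lost without Scr1 CLM replicate 1 (0.0863) or SIK3 CLM replicate 2 (0.0925). At 4h it was 2.24-fold lower (log2 -1.17, CI -1.68 to -0.65, adjusted p = 0.00632), a call lost without SIK3 4h replicate 2 (0.0581). At 30min the difference of -0.57 missed the threshold (adjusted p = 0.116, and 0.00011 with the block). The difference of 0.53 between Scr1 4h and Scr1 CLM did not pass either (CI 0.02 to 1.03, adjusted p = 0.313, and 0.00031 with the block). That interval uses a normal quantile and is narrower than the test implies.

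PSMB10, the counterpart of PSMB7, was the most weakly expressed of the 3 and differed most between sets. It stood at 10.7 and 7.04 CPM in Scr1 4h, 4.39 and 4.38 in Scr1 CLM, and 3.46 and 3.11 in Scr1 30min. In the sets named SIK3 it stood at 2.32 and 2.59 CPM at 4h, 2.22 and 1.29 without TNF, and 1.38 and 0.883 at 30min. All 6 of these libraries were below all 6 named Scr1, and the share of all genes with such a separation was not counted. PSMB10 was lower by 2.43-fold without TNF (log2 -1.28, CI -1.87 to -0.68, adjusted p = 0.00808), 2.90-fold at 30min (log2 -1.54, adjusted p = 0.00432) and 3.61-fold at 4h (log2 -1.85, CI -2.42 to -1.28, adjusted p = 0.000832). The first of these calls was lost without SIK3 CLM replicate 2 (adjusted p = 0.054). From Scr1 CLM to Scr1 4h it rose 2.03-fold (log2 1.02, CI 0.48 to 1.56), at an adjusted p of 0.0498 that rose above the threshold when any of 8 libraries was left out (0.0502 to 0.324). Those were both libraries of Scr1 CLM, Scr1 30min and SIK3 4h, and replicate 1 of Scr1 4h and SIK3 30min.

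Part of the PSMB10 signal cannot be assigned with certainty. Of its 1853 exonic bases, 644 (34.8%) also lie in exons of AC040162.1, a gene on the same strand, so reads there cannot be given to one of them. AC040162.1 had 470 counts in all against 730 for PSMB10. It stood at 5.46 and 5.53 CPM in Scr1 4h and 1.22 and 1.27 in Scr1 CLM (log2 2.14, adjusted p = 0.00113). It stood at 2.38 and 1.97 CPM in SIK3 CLM, 0.967 and 1.62 in SIK3 30min, and 2.39 and 3.53 in SIK3 4h. Between the names SIK3 and Scr1 the difference was 0.82 without TNF (adjusted p = 0.0544), opposite in sign to that of PSMB10, and -0.88 at 4h (adjusted p = 0.0219), with the same sign. PSMB8-AS1, on the plus strand, shares 618 exonic bases with PSMB8 and 456 with TAP1, which lie on the other strand, and 174 with PSMB9, which lies on the same strand. PSMB8 and PSMB9 share 139 bases, and ERAP1 shares 299 with CAST and 252 with AC008906.1. The strand setting of the counting is not given in the sources used here, and PSMB8-AS1 had 626 counts against 6903 for PSMB8. TAP2 shares 2064 bases (32.3%) with AL669918.1, which had 0 counts. Ambiguous reads, which are kept apart from the gene counts, were 1.76 to 4.78% of all reads. If reads on shared bases fell among them, levels per exonic kilobase of TAP2 and PSMB10 would be too low, and ratios with them shifted. The 0 counts of AL669918.1 do not settle this, and it was not tested.

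NLRC5, the class I coactivator, had the fewest counts of the 9 genes, at 638 in all and 31 to 77 per library. It stood at 2.54 and 2.76 CPM in Scr1 CLM, 1.70 and 2.89 in Scr1 30min, and 3.64 and 3.72 in Scr1 4h. It stood at 2.30 and 3.40 CPM in SIK3 CLM, 2.95 and 3.09 in SIK3 30min, and 3.72 and 4.24 in SIK3 4h. The 4 libraries of the sets named 4h were the highest 4 of 12. The differences from CLM were 0.48 for Scr1 4h (CI -0.06 to 1.01, adjusted p = 0.417) and 0.51 for SIK3 4h (CI -0.02 to 1.04, adjusted p = 0.398), and neither passed, also not with the block (0.16 and 0.11). Unlike PSMB9, PSMB10, ERAP1 and ERAP2, NLRC5 was not lower in any of the 3 sets named SIK3 than in the Scr1 set of the same time (differences of 0.09, 0.39 and 0.12), although the intervals reach down to -0.41, -0.14 and -0.41. That difference between genes was not tested.

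ERAP1 and ERAP2, the trimming peptidases, separated all 6 libraries named SIK3 from all 6 named Scr1. The share of all genes that separate the libraries in this way was not counted. ERAP1 stood at 174 and 167 CPM in Scr1 CLM, 164 and 159 in Scr1 30min, and 246 and 225 in Scr1 4h. It stood at 109 and 115 CPM in SIK3 CLM, 105 and 108 in SIK3 30min, and 115 and 125 in SIK3 4h. ERAP1 was lower in the sets named SIK3 by 1.53-fold without TNF (log2 -0.61, SE 0.09, adjusted p = 0.000414), 1.52-fold at 30min (log2 -0.60, adjusted p = 0.000452) and 1.97-fold at 4h (log2 -0.98, adjusted p = 3.2e-05). From Scr1 CLM to Scr1 4h it rose 1.38-fold (log2 0.46, CI 0.30 to 0.63, adjusted p = 0.00788), a call lost without Scr1 CLM replicate 2 (0.062) or Scr1 4h replicate 1 (0.0729). From SIK3 CLM to SIK3 4h the difference was 0.10 (CI -0.07 to 0.27, adjusted p = 0.691).

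ERAP2 stood at 90.0 and 80.7 CPM in Scr1 CLM, 80.03 and 78.3 in Scr1 30min, and 117 and 98.9 in Scr1 4h. In the sets named SIK3 it stood between 49.0 and 58.9 CPM in all 6 libraries. It was lower there by 1.60-fold without TNF (log2 -0.68, adjusted p = 0.0012), 1.47-fold at 30min (log2 -0.55, adjusted p = 0.00394) and 1.86-fold at 4h (log2 -0.90, adjusted p = 0.000243). These 3 calls and those of ERAP1 remained in all 20 alternatives run for each. The difference between Scr1 4h and Scr1 CLM was 0.34 (CI 0.11 to 0.56, adjusted p = 0.115, and 0.00058 with the block), and that between SIK3 4h and SIK3 CLM 0.12 (adjusted p = 0.74).

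**Figure D2:**
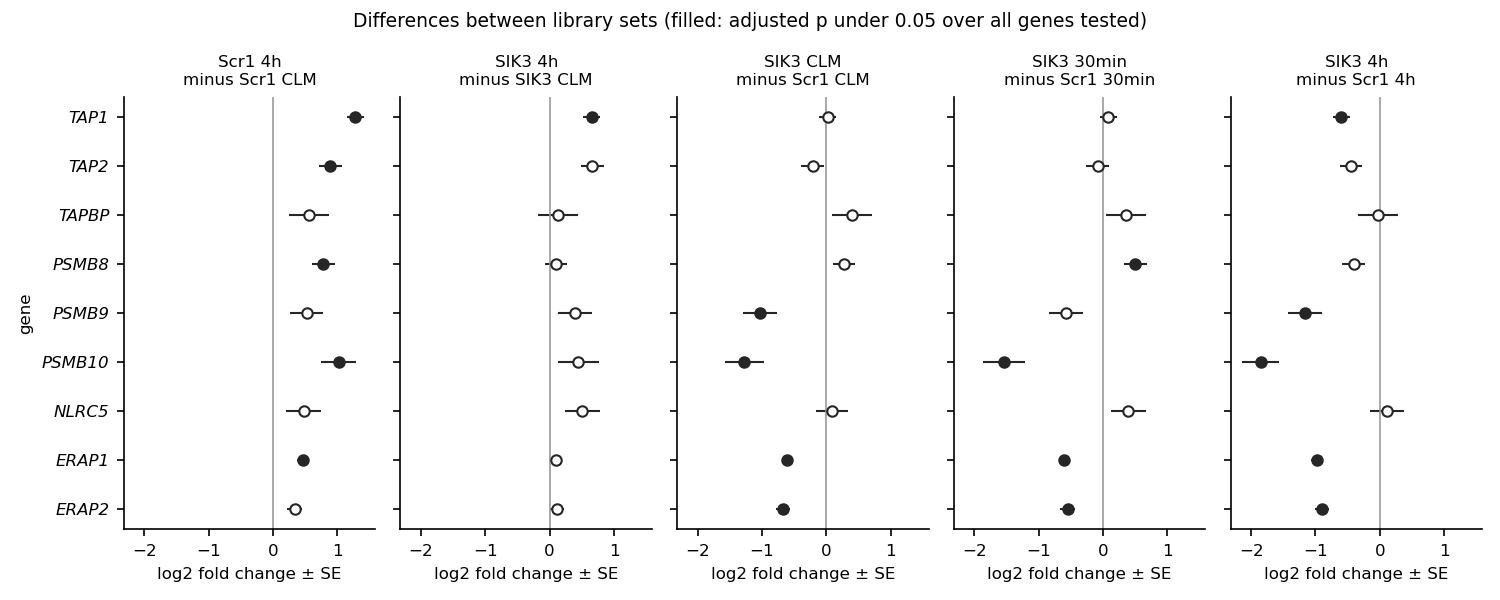
Each panel shows 1 comparison of library sets, with the 9 genes on the vertical axis and the log2 fold change on the horizontal axis, bars being 1 SE of the fit. Filled points have an adjusted p under 0.05. In the first panel 5 genes are filled, from 0.46 for ERAP1 to 1.28 for TAP1, and in the last panel 5 are filled, from -0.60 for TAP1 to -1.85 for PSMB10.

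Counted over the 9 genes, 5 rose from Scr1 CLM to Scr1 4h, namely TAP1, TAP2, PSMB8, PSMB10 and ERAP1, where 5.53% of all genes tested were higher. The median log2 fold change of the 9 was 0.56, against -0.03 over all genes. With the block 8 of 9 rose, all but NLRC5, where 23.5% of all genes were called in either direction. By title this comparison is control siRNA with TNF for 30 min against control siRNA without TNF. Between Scr1 30min and Scr1 CLM, titled SIK3 siRNA against control siRNA without TNF, 0 of 9 were called by edgeR and 0 by DESeq2, where 0.294% of all genes were called and 736 had an unadjusted p under 0.05. With the block TAP1 and PSMB8 fell there (log2 -0.29 and -0.33, adjusted p = 0.015 and 0.045), where 2.78% of all genes were called.

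Under the name SIK3, TAP1 alone of the 9 rose from CLM to 4h, where 3.65% of all genes were higher. The median of the 9 was 0.39, against -0.0023 over all genes. With the block TAP1, TAP2 and PSMB9 rose, where 21.8% of all genes were called in either direction. By title these are SIK3 siRNA with TNF for 4 h and for 30 min. Between SIK3 30min and SIK3 CLM 0 of 9 were called by edgeR or DESeq2, where 0.15% of all genes were called and 725 had an unadjusted p under 0.05. With the block TAP1 was lower there (log2 -0.23, adjusted p = 0.049), where 3.37% of all genes were called.

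Between sets named SIK3 and Scr1 at the same time, PSMB10, ERAP1 and ERAP2 were lower in all 3 comparisons, a pattern not counted over all genes. Without TNF 4 of 9 were lower, these 3 and PSMB9, where 19.8% of all genes were lower, and none was higher. With the block 5 were lower and 2 higher, TAPBP and PSMB8, where 58.4% of all genes were called in either direction. At 30min 3 of 9 were lower, where 19.6% of all genes were lower, and 1 was higher, PSMB8, where 18.2% were higher. With the block PSMB9 was lower too and TAPBP higher (log2 0.34, adjusted p = 1.3e-05), where 58.5% of all genes were called. At 4h 5 of 9 were lower, TAP1 and PSMB9 with those 3, where 19.9% of all genes were lower, and with the block TAP2 and PSMB8 too, where 58.8% were called. The medians of the 9 were -0.21, -0.08 and -0.60 against 0.01, -0.01 and 0.03 over all genes. The 3 comparisons share no library, but every set named Scr1 or SIK3 enters comparisons over time as well.

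The summed level of 3 mesenchymal markers, VIM, CDH2 and FN1, was 3358 to 4096 CPM in libraries named Scr1 and 1411 to 2394 CPM in those named SIK3, nearly all of it VIM. The summed level of 5 fibroblast markers was 15.3 to 18.1 CPM against 22.9 to 36.5 CPM, with 3 of 5 (COL1A2, DCN and PDGFRA) under 1 CPM in every library. Their part in the lower ERAP1, ERAP2, PSMB9 and PSMB10 was not tested. The summed level of 6 markers of myeloid and antigen-presenting cells was 8.20 to 10.3 CPM in Scr1 4h and 1.53 to 3.61 CPM in the other sets. CD74 accounted for most of it, and the other 5, with CD14, CSF1R and HLA-DRA among them, were each under 1 CPM in every library.

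Whether the change from CLM to 4h differed between the names Scr1 and SIK3 was tested as an interaction. None of the 9 genes passed, where 1.56% of all genes did. The estimates were -0.62 for TAP1 (CI -0.99 to -0.25, adjusted p = 0.191), -0.68 for PSMB8 (CI -1.16 to -0.20, adjusted p = 0.303) and -0.37 for ERAP1 (CI -0.60 to -0.13, adjusted p = 0.248). With the block 4 of 9 passed, TAP1, TAPBP, PSMB8 and ERAP1, all with a smaller rise under the name SIK3, where 12% of all genes were called. DESeq2 without the block called none of the 9. For the change from CLM to 30min, 0 of 9 and 0% of all genes passed in edgeR, with 317 genes at an unadjusted p under 0.05, and DESeq2 called 6 genes, none of the 9. Both interactions follow the library names, and by title the same sums of sets have no such meaning.

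The remaining comparisons are pairs only by title, and they share libraries with those above. Titled SIK3 siRNA against control siRNA with TNF for 30 min, SIK3 CLM against Scr1 4h gave 7 of 9 lower, all but TAPBP and NLRC5, where 21.8% of all genes were lower, and with the block TAPBP was lower too (adjusted p = 0.014), where 61% of all genes were called. The log2 fold changes ran from -0.51 for PSMB8 to -2.30 for PSMB10, and that of PSMB8 was lost without Scr1 4h replicate 1, SIK3 CLM replicate 2 or either SIK3 4h library (adjusted p 0.0535 to 0.255). Titled SIK3 siRNA against control siRNA with TNF for 4 h, SIK3 4h against SIK3 30min gave 2 of 9 higher, where 4.94% of all genes were higher. These were TAP1 (log2 0.89, adjusted p = 0.00398) and TAP2 (log2 0.80, adjusted p = 0.0271), the latter lost without any 1 of the 4 libraries compared (0.0604 to 0.201). With the block 5 were higher, TAPBP, PSMB10 and ERAP1 in addition, where 27.8% of all genes were called. SIK3 itself was lower in the first of these comparisons (log2 -1.37, adjusted p = 0.0165) and differed by -0.01 in the second (adjusted p = 0.997).

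Titled TNF for 4 h against none under control siRNA, SIK3 30min against Scr1 CLM gave 4 of 9 lower, PSMB9, PSMB10, ERAP1 and ERAP2, where 19.7% of all genes were lower. The call of PSMB9 (log2 -0.92) was lost without Scr1 CLM replicate 1 or either SIK3 30min library (adjusted p 0.0506 to 0.137). With the block 6 were lower and 1 higher, TAPBP, where 57.8% of all genes were called. Titled TNF for 30 min against none under SIK3 siRNA, SIK3 CLM against Scr1 30min gave 3 lower, where 20.4% were lower, and 1 higher, where 19.7% were higher. PSMB8 was the higher one (log2 0.61, lost without SIK3 CLM replicate 1 or either Scr1 30min library), and PSMB10, ERAP1 and ERAP2 were lower. PSMB10 (log2 -0.86) was lost without any of 7 libraries (0.0562 to 0.236), the 2 of Scr1 CLM, Scr1 30min and SIK3 4h each and SIK3 CLM replicate 2. With the block 7 were called, where 59.8% of all genes were. Titled TNF for 4 h against none under SIK3 siRNA, SIK3 4h against Scr1 30min gave 4 higher, TAP1, TAP2, PSMB8 and NLRC5, where 21.3% were higher, and 2 lower, ERAP1 and ERAP2, where 20.5% were lower. With the block TAPBP was higher (log2 0.64, adjusted p = 1.3e-09) and PSMB9 lower (log2 -0.30, adjusted p = 0.022) as well, where 61.7% of all genes were called. NLRC5 (log2 0.79, adjusted p = 0.0388) was called in no other comparison, and that call was lost without any of 9 libraries (0.055 to 0.276), all but the 2 of SIK3 CLM and Scr1 30min replicate 2. In the same comparison TAP2 was lost without Scr1 30min replicate 1 or SIK3 4h replicate 2, PSMB8 without Scr1 30min replicate 2 or SIK3 4h replicate 1, and ERAP2 without SIK3 4h replicate 2 (0.0642 to 0.101 for these).

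Because subunits exchange within the proteasome, each immunoproteasome gene was set against its constitutive counterpart within each library, per exonic kilobase, which needs no scaling between libraries. The ratio of PSMB8 to PSMB5 was 0.559 and 0.574 in Scr1 4h and 0.338 and 0.361 in Scr1 CLM. It was 0.227 and 0.306 in Scr1 30min and 0.236 to 0.299 in the 6 libraries named SIK3. The 2 Scr1 4h libraries were the highest of all 12. PSMB5 itself stood at 52.1 and 41.4 CPM in Scr1 CLM and was higher, at 78.1 and 67.8 CPM, in SIK3 CLM (log2 0.64, adjusted p = 0.0428), so the ratio was lower in SIK3 CLM than in Scr1 CLM although PSMB8 was not.

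The ratio of PSMB9 to PSMB6 was 0.225 and 0.246 in Scr1 4h, 0.173 and 0.164 in Scr1 CLM and 0.134 and 0.149 in Scr1 30min, and 0.0829 to 0.114 in the 6 libraries named SIK3. All 6 libraries named Scr1 were above all 6 named SIK3. For PSMB10 to PSMB7 it was 0.0476 and 0.0352 in Scr1 4h, 0.0202 and 0.0252 in Scr1 CLM, and 0.0165 and 0.0163 in Scr1 30min. It was 0.0054 to 0.0160 in libraries named SIK3, again with no overlap. PSMB6 and PSMB7 did not pass the test between Scr1 CLM and SIK3 CLM (log2 -0.15 for both), nor between Scr1 CLM and Scr1 4h. With the block, 2 of PSMB5, PSMB6 and PSMB7 were lower and 1 was higher in SIK3 CLM than in Scr1 CLM. There 58.4% of all genes were called in either direction. Read counts per length are not protein, and these ratios describe RNA.

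**Figure D3:**
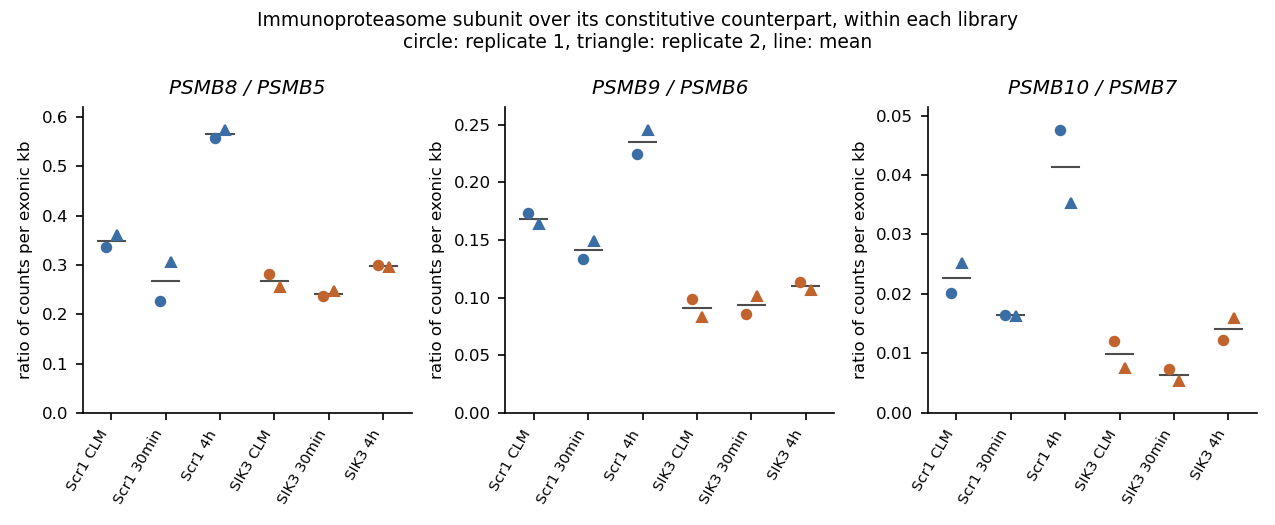
Each panel plots the ratio of an immunoproteasome subunit to its constitutive counterpart, in counts per exonic kilobase, for the 6 library sets, with circles for replicate 1, triangles for replicate 2 and lines for the mean. Scr1 4h is highest in all 3 panels, at means of 0.566, 0.235 and 0.0414.

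TAP1 and PSMB9, transcribed in opposite directions with 487 bases between their nearest RefSeq starts, did not keep a fixed ratio. In counts per exonic kilobase, TAP1 exceeded PSMB9 by 2.89 and 3.51 in Scr1 CLM and by 3.09 and 3.43 in Scr1 30min. The ratio was 5.02 and 5.60 in Scr1 4h, 5.82 and 7.64 in SIK3 CLM, 5.22 and 5.01 in SIK3 30min and 6.72 and 9.30 in SIK3 4h. The 4 libraries of Scr1 CLM and Scr1 30min were below all of the other 8. From Scr1 CLM to Scr1 4h TAP1 rose by 1.28 (log2) against 0.53 for PSMB9, and in SIK3 CLM PSMB9 was lower by -1.03 while TAP1 differed by 0.02. The ratio of ERAP1 to ERAP2 stayed between 1.76 and 2.19 in all 12 libraries. Its highest mean was in Scr1 4h (1.97 and 2.12), above both libraries of Scr1 CLM (1.81 and 1.93) and of Scr1 30min. The ratio of TAP1 to TAP2 was 5.96 to 10.6, and replicate 1 was above replicate 2 in every set.

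**Figure D4:**
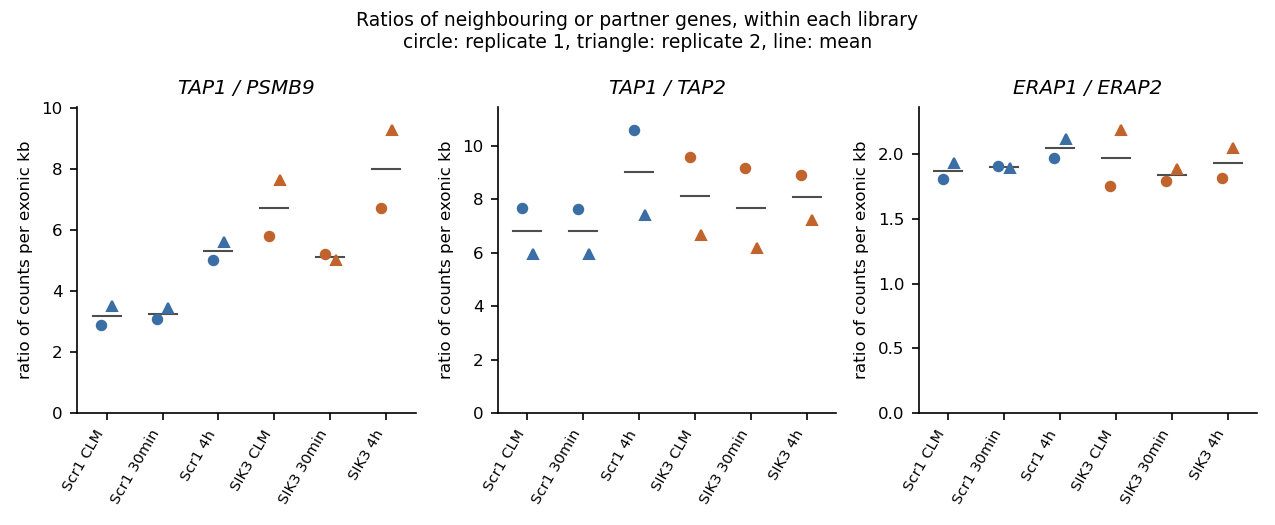
Each panel plots a ratio of 2 genes, in counts per exonic kilobase, for the 6 library sets, with circles for replicate 1, triangles for replicate 2 and lines for the mean. TAP1 over PSMB9 lies at 2.89 to 3.51 in Scr1 CLM and Scr1 30min and at 5.01 or more elsewhere, whereas ERAP1 over ERAP2 stays between 1.76 and 2.19.

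Other genes of the pathway were counted in lists. Of 7 class I chains, which present the peptides, 6 were tested and 5 rose from Scr1 CLM to Scr1 4h, where 5.53% of all genes were higher (6 with the block, where 23.5% were called in either direction). HLA-F rose by 7.79-fold, HLA-B by 3.31-fold, HLA-E by 1.85-fold and HLA-C by 1.78-fold. HLA genes are near-identical in parts, so counts of single HLA genes are uncertain. From SIK3 CLM to SIK3 4h 1 rose, HLA-F by 1.86-fold, where 3.65% of all genes were higher (4 with the block, where 21.8% were called). In SIK3 CLM against Scr1 CLM 3 were higher, HLA-E by 1.61-fold, HLA-B by 1.55-fold and HLA-C by 1.37-fold, where 3151 of the 16695 genes were higher. At 4h 2 were lower under the name SIK3, HLA-F and HLA-B, where 19.9% of all genes were lower (5 with the block, where 58.8% were called). The same 2 passed the interaction over CLM and 4h (HLA-B log2 -1.28, HLA-F log2 -2.06), where 1.56% of all genes did (6 of 6 with the block, where 12% did). The median of the 6 tested was 0.94 from Scr1 CLM to Scr1 4h and 0.32 from SIK3 CLM to SIK3 4h.

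Among the loading chaperones 0 of 4 passed from Scr1 CLM to Scr1 4h, where 5.53% of all genes were higher (1 with the block, where 23.5% were called in either direction). TAPBPL, a relative of tapasin, was lower in all 3 sets named SIK3, by 1.76-fold without TNF, 1.69-fold at 30min and 2.26-fold at 4h. Under the name SIK3, 1 of the 4 chaperones was lower without TNF, where 19.8% of all genes were lower. At 30min 1 was lower and 1 higher, where 19.6% and 18.2% were. At 4h 2 were lower, where 19.9% were. With the block 2, 2 and 3 were lower and 1, 1 and 0 higher, where 58.4%, 58.5% and 58.8% of all genes were called. None of the 3 constitutive catalytic subunits passed from Scr1 CLM to Scr1 4h. Of 11 structural subunits of the core particle 1 rose there, PSMA6 by 1.60-fold, where 5.53% of all genes were higher (4 with the block, where 23.5% were called). In SIK3 CLM against Scr1 CLM 3 of these 11 were lower, PSMB2, PSMA2 and PSMA6, close to the 19.8% of all genes that were lower (9 with the block, where 58.4% of all genes were called). At 4h 6 were lower, where 19.9% of all genes were (10 with the block, where 58.8% were called). Of 9 activators and assembly factors 1 rose from Scr1 CLM to Scr1 4h, where 5.53% of all genes were higher (2 with the block, close to the 23.5% called). It was PSME1, a subunit of the activator that cytokines induce, by 1.39-fold.

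Of 8 other peptidases of the pathway, 5 were lower under the name SIK3 without TNF, 5 at 30min and 6 at 4h, where 19.8%, 19.6% and 19.9% of all genes were lower. In each comparison 1 of the 8 was higher, where 3151, 3040 and 3277 of the 16695 genes were higher. LNPEP, the aminopeptidase that neighbours ERAP2, was 2.34-fold lower in SIK3 CLM, NPEPPS 1.56-fold, TPP2 1.48-fold and NLN 1.29-fold. None of the 8 passed from Scr1 CLM to Scr1 4h, where 5.53% of all genes were higher, and their median there was -0.06. With the block 1 was higher, where 23.5% of all genes were called.

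Of 9 upstream factors 5 rose from Scr1 CLM to Scr1 4h, IRF1 by 6.75-fold, NFKB2 by 2.70-fold, NFKB1 by 2.49-fold and RELB by 2.35-fold among them, where 5.53% of all genes were higher. From SIK3 CLM to SIK3 4h 5 rose, IRF1 by 4.51-fold among them, where 3.65% of all genes were higher. With the block 6 rose and 2 fell there, where 21.8% of all genes were called in either direction. From Scr1 CLM to Scr1 4h 7 rose with the block, where 23.5% were called. IRF1, an activator of several of the 9 genes, stood at 114 and 123 CPM in Scr1 CLM, 285 and 291 in Scr1 30min, and 792 and 805 in Scr1 4h. It stood at 56.6 and 64.3 CPM in SIK3 CLM, 99.3 and 107 in SIK3 30min, and 258 and 287 in SIK3 4h. No set overlapped another except that SIK3 4h reached the range of Scr1 30min. STAT2, by contrast, was higher in SIK3 CLM than in Scr1 CLM (1.46-fold). Of the 9 upstream factors 3 were higher and 3 lower in that comparison, where 3151 of the 16695 genes were higher and 19.8% lower. At 30min 2 were higher and 3 lower under the name SIK3, where 18.2% and 19.6% of all genes were. At 4h 1 was higher and 5 were lower, where 3277 of the 16695 genes were higher and 19.9% lower. Of 8 factors that bind class I promoters, RFX5 and CREB1 rose from Scr1 CLM to Scr1 4h (1.85-fold and 1.38-fold), where 5.53% of all genes were higher. Both were lower in SIK3 CLM than in Scr1 CLM (1.89-fold and 1.83-fold), where 19.8% of all genes were lower. RFXANK and NFYA were among 3 of the 8 that were higher there (1.64-fold and 1.41-fold), where 3151 of the 16695 genes were higher.

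The genes whose pattern over the 12 libraries was most like that of TAP1 were STAT5A (Pearson r = 0.988), TYK2 (0.987) and SLC41A2 (0.985), among 13638 genes searched with a mean of at least 1 CPM. Among those most like PSMB9 were MTMR14 (0.975) and SPAG1 (0.966). For PSMB10 they were FUT4 (0.979), IKBKE (0.975) and MICU3 (0.970), and among those most like NLRC5 were TBC1D22B (0.890) and SBNO2 (0.889). The 12 points are 6 sets of 2 that fall apart by the siRNA in their names, so any gene that differs between the names shares much of the PSMB9 and PSMB10 pattern, and the values are descriptions.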

How the data were processed

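RNA was extracted with RNeasy and DNase I and made into ScriptSeq libraries, per the labels. The deposited values are raw counts of reads per gene, whole numbers in 1 column per library, and STAR 2.05b, edgeR and GRCh38 are named per the submitters' processing notes. The annotation release and strand setting are not given in the sources used here. Symbols, exons and lengths came from GENCODE 29, promoters from RefSeq (GRCh38.p14).

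The analysis used edgeR 4.0.16 under R 4.3.3. filterByExpr (minimum count 10) kept 16695 genes, libraries were scaled by TMM, and a quasi-likelihood fit of all 12 libraries as 6 sets, without a block, had 6 residual degrees of freedom. It gave 12 comparisons and 2 interactions, adjusted by Benjamini-Hochberg with a threshold of 0.05. Of the 12, 7 are pairs by the library names and 5 by title only. SEs come from the square root of F, and 95% intervals use a normal quantile. They make no allowance for the 6 residual degrees of freedom. They are therefore narrower than the test implies, and an interval can exclude no change where the unadjusted test does not. CPM are TMM-scaled, and the log2 CPM used for likeness had a prior count of 2. Ratios within a library are of counts per exonic kilobase. Figures were drawn in Python 3.11.15.

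Replicates of a set differed by more than counting error (chi-square 16.5 to 33.5 per degree of freedom). Deviations of same-numbered replicates from their set means correlated across genes in all 15 pairs of sets (0.350 to 0.530, limit 0.1), so the numbers were taken to pair libraries, and the fit with the replicate number as a block is given beside counts of members that it changes. The labels name biological replicates without saying what a number shares.

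The fit was tested on simulated data. For Scr1 4h against Scr1 CLM, over 16141 genes, 4.48% of the 67 genes given a 1.5-fold change were called. Of the 67 given 2-fold 43.3% were called, and of the 66 given 4-fold 92.4%. The simulated replicates had no shared effect, and far fewer genes changed than were called between the siRNA names. These shares therefore do not carry over to those comparisons or to the fit with the block. Alternatives were the Wald test of DESeq2 1.42.0, its size factors in edgeR, scaling to library totals, the block, keeping every gene, keeping genes that reach 1 CPM in 4 libraries, fitting only the libraries compared, an adjusted p under 0.01, and leaving out each of the 12 libraries. The members, gene lists, motifs and tests were chosen with earlier results of these data known. The genes named are the 9 members, SIK3, up to 4 genes of a list with the smallest p, the 3 genes most like TAP1, PSMB9, PSMB10 and NLRC5, and genes that overlap members, and a few genes that this rule names are not reported here. Other genes named (PSMB5, PSMB6, PSMB7, IRF1, markers) were set beside a member result after their values were seen.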

Additional observations from a re-analysis of the deposited data

Results flagged for a closer look

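With the replicate number as a block, the change from CLM to 4h, by the library names, was smaller in the sets named SIK3 than in those named Scr1 for 4 genes. The difference of the 2 log2 fold changes was -0.62 for TAP1, -0.44 for TAPBP, -0.67 for PSMB8 and -0.36 for ERAP1 (adjusted p = 5.6e-05, 0.00039, 0.00035 and 0.0069, edgeR). Without the block none of the 4 passed (0.191, 0.885, 0.303 and 0.248). With 2 libraries per set, no set could be searched for a library that stands apart.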

How the results depend on the processing

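Each comparison was run under 20 alternatives, 12 of which leave out 1 library, and no called direction of the 9 genes was reversed in any. With the replicate block, the number of genes called went from 5 to 8 for Scr1 4h against Scr1 CLM, 0 to 2 for Scr1 30min against Scr1 CLM, 0 to 1 for SIK3 30min against SIK3 CLM, 1 to 3 for SIK3 4h against SIK3 CLM, 2 to 5 for SIK3 4h against SIK3 30min and 0 to 4 for the interaction at 4h, and from 4 to 7 for SIK3 CLM against Scr1 CLM, SIK3 30min against Scr1 CLM and SIK3 CLM against Scr1 30min. Over all comparisons the block added 31 calls of single genes and ended none. At an adjusted p under 0.01 the count was 2 for Scr1 4h against Scr1 CLM, 0 for SIK3 4h against SIK3 CLM, 1 for SIK3 4h against SIK3 30min and 2 for SIK3 CLM against Scr1 30min. Fitting only the libraries compared gave 2, 0 and 1 for the first 3 of these. For SIK3 4h against SIK3 CLM, no filter and the DESeq2 Wald test each gave 2. The cause of these changes was not tested.

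Leaving out 1 library moved the count, from its lowest to its highest, over 1 to 5 (Scr1 4h against Scr1 CLM), 0 to 1 (SIK3 4h against SIK3 CLM), 2 to 4 (SIK3 CLM against Scr1 CLM), 3 to 4 (SIK3 30min against Scr1 30min and against Scr1 CLM), 4 to 6 (SIK3 4h against Scr1 4h), 6 to 7 (SIK3 CLM against Scr1 4h), 1 to 2 (SIK3 4h against SIK3 30min), 2 to 4 (SIK3 CLM against Scr1 30min) and 3 to 6 (SIK3 4h against Scr1 30min), and left it at 0 in the others. For Scr1 4h against Scr1 CLM it was 2 without Scr1 CLM replicate 1 or Scr1 4h replicate 1 and 1 without Scr1 CLM replicate 2. It was 2 without SIK3 CLM replicate 2 for SIK3 CLM against Scr1 CLM and 3 without SIK3 4h replicate 2 for SIK3 4h against Scr1 30min. The lone library left in a set was assumed to vary like the other sets. In simulated data with 2 libraries a set, few changed genes and no block, changes under 2-fold were seldom detected. That is no limit for the comparisons of siRNA names, where ERAP1 (log2 -0.61) and ERAP2 (log2 -0.68) passed without TNF. PSMB10 and NLRC5, with 730 and 638 counts in all, were measured least precisely.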
